A study of Mus musculus with 18 samples.

Results

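A set of 10 microtubule-associated and tubulin-binding genes was followed here across breast cancer cell lines that differ in integrin β3 and received a taxane. The genes are 10 of the 32765 gene symbols in the count table, chosen by name: Stmn1, Map1b, Map4, Map7, Mtus1, Mapre1, Mapre3, Tbca, Tbcb and Ttc5. RNA sequencing covered 18 cultures of PyMT-BO1 cells, a mouse breast cancer line described as luminal B-like, of C57BL/6 background. All lines were knocked out for integrin β3 and differed in what a retrovirus put back. The Δβ3 line received a mutant integrin β3 that cannot signal, the hβ3 line a functional human integrin β3, and the pMx line the empty vector. Each line was given 10 nM docetaxel, a drug that stabilises microtubules, or DMSO, its solvent control, for 24 h, with 3 cultures in each of the 6 groups. There was 1 line per construct. A contrast of lines therefore includes anything else in which they differ, and p-values measure the spread between cultures.

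Microtubules grow and shrink from pools of α- and β-tubulin dimers, and the proteins of this set act at each step of that cycle. Cofactors fold and hand over tubulin, stathmin holds free dimers, end-binding proteins ride on growing tips, and structural microtubule-associated proteins bind and steady the lattice. Cells also sense free tubulin, which lowers the stability of tubulin mRNAs, and TTC5 reads the nascent tubulin chain in that loop in human cells.

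Promoter sequence, from 250 bases before to 50 after the start site, was taken from RefSeq (GRCm38.p6) and was matched for 8 of the 10 genes; Stmn1 and Mtus1 were the others. The sequences of Map1b and Ttc5 are shown because, among the 8, these genes were called between lines in DMSO in the fit of all 18 libraries, in opposite directions. The Map1b window is chr13:99516553-99516852 and that of Ttc5 is chr14:50785471-50785770, both on the minus strand. Start sites here are those of RefSeq. For Map1b the GENCODE coordinates given below begin at 99516540 on this strand, so the whole window lies before that start. Capitals mark matches to the searched motifs.
Map1b: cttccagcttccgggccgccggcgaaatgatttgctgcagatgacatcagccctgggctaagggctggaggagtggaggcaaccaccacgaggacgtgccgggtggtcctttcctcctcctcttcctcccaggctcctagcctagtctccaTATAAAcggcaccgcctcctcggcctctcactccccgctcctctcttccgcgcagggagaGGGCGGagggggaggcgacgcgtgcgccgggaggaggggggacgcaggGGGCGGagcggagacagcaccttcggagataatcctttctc
Ttc5: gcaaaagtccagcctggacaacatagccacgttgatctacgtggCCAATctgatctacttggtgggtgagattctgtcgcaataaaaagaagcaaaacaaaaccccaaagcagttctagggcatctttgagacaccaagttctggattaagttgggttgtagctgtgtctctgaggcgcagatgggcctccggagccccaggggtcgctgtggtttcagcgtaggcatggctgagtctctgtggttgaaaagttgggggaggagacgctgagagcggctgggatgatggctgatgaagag
Both strands were searched for the TATA box as TATAAA, the CCAAT box as CCAAT, the GC box as CCGCCC, the AP-1 site as TGANTCA, the CRE core as TGACG and the E box as CACGTG. Map1b held 1 TATAAA match starting 99 bases before the start site and 2 GC boxes, printed on this strand as GGGCGG. Ttc5 held 1 CCAAT match starting 206 bases before the start site. The TATA box was found in 13.6% of the 32851 promoters of this length, the CCAAT box in 37.4% and the GC box in 35.7%. The AP-1 site was found in 7.81%, the CRE core in 20.8% and the E box in 7.15% of them, and none of these was in a sequence shown. A match describes the letters of the window and no site of binding.

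Total counts per library ran from 7972612 to 18961392, and levels are given below in CPM, counts scaled to a common library size with TMM factors. Itgb3, the knocked-out gene, had 32.9 to 113.6 CPM in Δβ3 and 72.2 to 130.6 CPM in hβ3, against 0.322 to 1.3 CPM in pMx. Human construct reads count here only where they aligned to the mouse gene, and the labels do not name the species of the Δβ3 construct, so levels of Itgb3 cannot be compared between Δβ3 and hβ3. The luminal keratin gene Krt8 was present in every library, at 645.6 CPM in Δβ3 docetaxel culture 2 and from 1089 CPM upwards in the rest. Krt18 had 543.8 to 1578 CPM. The others of the 13 luminal markers, Epcam and Cdh1 among them, were at or under 2.19 CPM in every library. Summed over 22 heart muscle markers, 2 cultures stand apart, with 51383 CPM for Δβ3 docetaxel culture 2 and 6161 CPM for Δβ3 DMSO culture 1, against 202 to 2580 CPM in the other 16 libraries. In both, Rn45s, the ribosomal RNA precursor, also took a high share of counts, 23.6% and 41.5% in that order. Its share was also high in hβ3 DMSO cultures 1 and 3, at 27.5% and 33.0%, and these are among the other 16 libraries. The part of these differences in the results was not tested, and the tests of the 10 genes were therefore run on all 18 libraries and on the other 16. The biological coefficient of variation was 36.0% with 18 libraries and 13.2% with 16. Calls were made with edgeR's quasi-likelihood test where the p, adjusted after Benjamini and Hochberg over all tested symbols, was under 0.05. The tested symbols were 12171 with 18 libraries and 12383 with 16. In either fit 9 of the 10 genes could be tested, the exception being Map7.

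**Figure D1:**
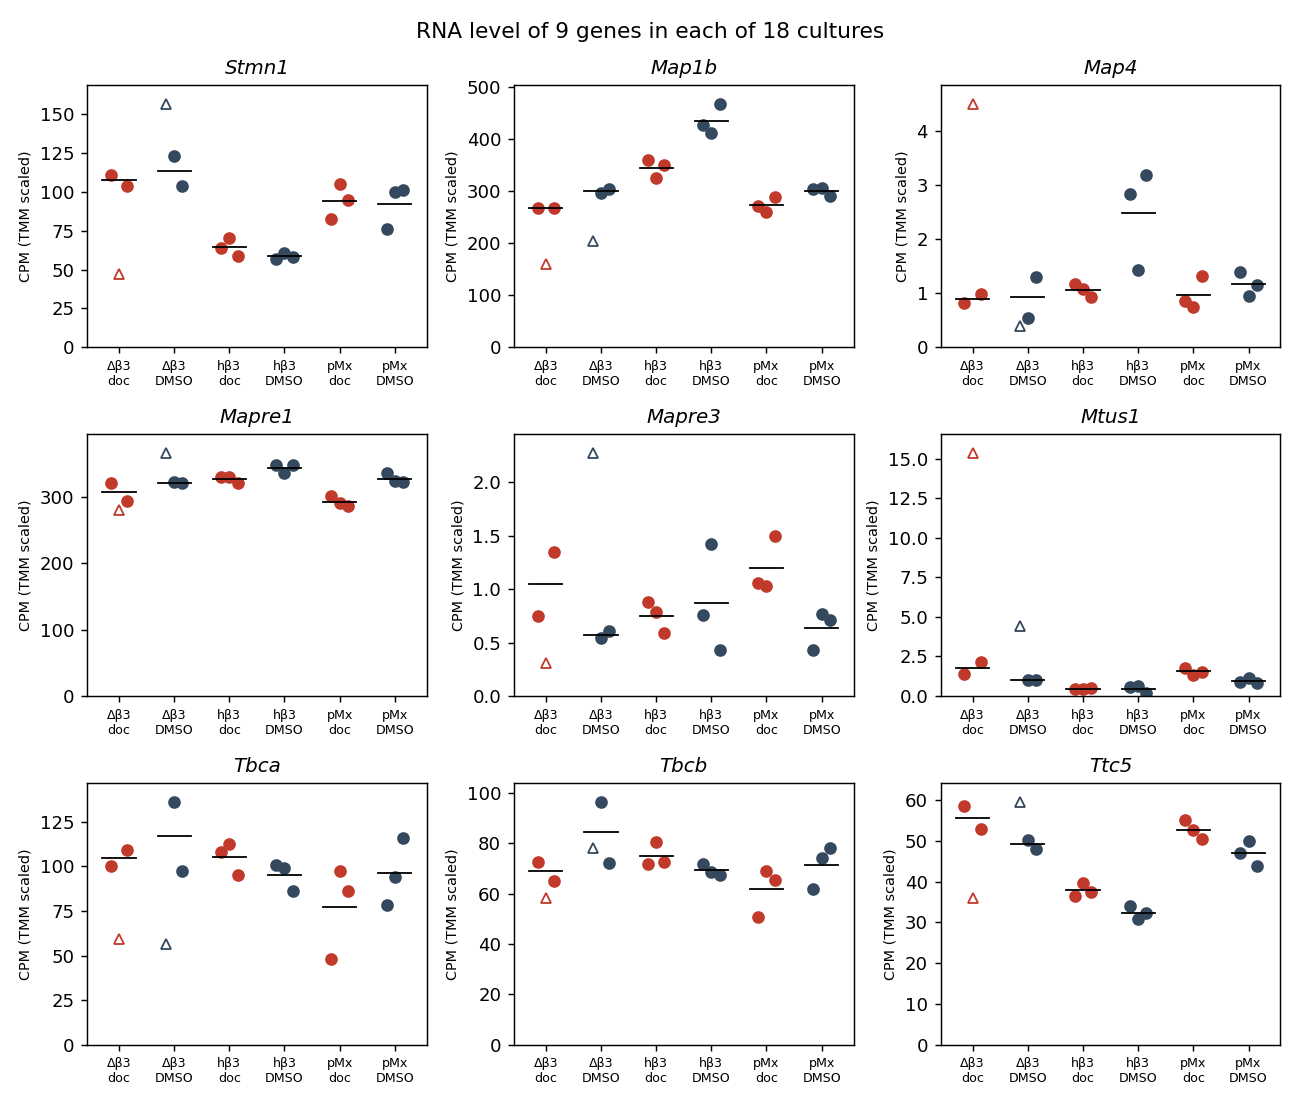
RNA level in CPM (linear axes from 0) of the 9 tested genes in each of the 18 cultures, docetaxel in red and DMSO in dark grey, with open triangles for the 2 cultures that stand apart and a line at the mean of the other cultures of a group. Stmn1 and Ttc5 sit lowest in the hβ3 groups and Map1b highest there, while Mapre1 lies between 281.3 and 366.5 CPM in all cultures.

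Stmn1 encodes stathmin, which binds tubulin dimers and favours shrinking of microtubules (chromosome 4, 134468320 to 134473843, plus strand, mm10). It was lowest in the line with functional integrin β3 and was called between Δβ3 and hβ3 in DMSO. In docetaxel it had 111.0, 46.9 and 103.9 CPM in Δβ3, 64.1, 70.2 and 58.9 CPM in hβ3, and 82.6, 105.0 and 95.1 CPM in pMx. In DMSO it had 156.5, 123.4 and 104.1 CPM in Δβ3, 57.0, 60.7 and 57.8 CPM in hβ3, and 76.0, 100.1 and 101.5 CPM in pMx. In DMSO all 3 lines kept to separate ranges, in the order Δβ3, pMx, hβ3, although the lowest Δβ3 culture was close to the highest pMx culture. The low docetaxel value of Δβ3 is culture 2, which stands apart; without it the 3 lines stand in the same order by their means. The summed level of 10 neuron markers, with 3 at 0 in every library, was also lowest in hβ3. It was 609 to 1849 CPM in Δβ3, 401 to 488 CPM in hβ3 and 617 to 836 CPM in pMx. That order was the one of Nefl, at 529 to 1780, 232 to 277 and 486 to 759 CPM in the same lines. The rest of the sum, mostly the tubulin gene Tubb3, was not lowest in hβ3. In DMSO the sum was 401 to 436 CPM in hβ3, of which Nefl had 232 to 258 CPM. In pMx DMSO the sum was 712 to 836 CPM with Nefl at 642 to 759 CPM, and in Δβ3 DMSO 955 to 1849 CPM with Nefl at 880 to 1780 CPM. The part of these genes in the levels of Stmn1 and Ttc5 was not tested.

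The Δβ3 minus hβ3 difference of Stmn1 in DMSO was a log2 fold change of 1.13 ± 0.24 (SE, 95% interval 0.66 to 1.60, 2.19-fold, adjusted p = 0.0043 in edgeR). Without the 2 cultures it was 0.97 ± 0.12, and the call was made under all 10 other settings and without any single library. Between hβ3 and pMx in DMSO the log2 difference was -0.66 ± 0.24 and was not called (adjusted p = 0.11), whereas with 16 libraries it was -0.68 ± 0.11 and was called (adjusted p over the alternatives 4.6e-07 to 0.15). In docetaxel the 16-library fit called Stmn1 in both comparisons with hβ3, at 0.74 ± 0.12 for Δβ3 minus hβ3 and -0.56 ± 0.11 for hβ3 minus pMx; with 18 libraries the values of 0.44 ± 0.24 and -0.55 ± 0.24 were not called. Δβ3 minus pMx in DMSO was not called, at 0.47 ± 0.24 with 18 libraries and 0.29 ± 0.12 with 16 (95% interval 0.06 to 0.52). Comparisons with hβ3 share its libraries and are not independent of one another. In bulk RNA, fewer cells of a kind and less RNA per cell cannot be told apart.

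Stmn1 was not called for docetaxel in any line or in their mean. The log2 change as the mean of the lines was -0.13 ± 0.14 with 18 libraries and 0.04 ± 0.07 with 16, with a 95% interval of -0.09 to 0.17 in the smaller fit. Within Δβ3 it was -0.55 ± 0.24 with 18 libraries and -0.08 ± 0.13 without the 2 cultures that stand apart. It was 0.16 ± 0.11 within hβ3 and 0.03 ± 0.11 within pMx with 16 libraries, and 0.14 ± 0.24 and 0.03 ± 0.24 with 18.

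Map1b encodes a large structural microtubule-associated protein best known from growing axons (chromosome 13, 99421446 to 99516540, minus strand, mm10). It was the reverse of Stmn1, highest in hβ3. In docetaxel it had 267.3, 159.6 and 267.8 CPM in Δβ3, 360.5, 325.9 and 350.2 CPM in hβ3, and 271.7, 259.3 and 288.3 CPM in pMx. In DMSO it had 203.5, 296.4 and 304.2 CPM in Δβ3, 426.8, 412.1 and 467.4 CPM in hβ3, and 304.8, 305.9 and 291.8 CPM in pMx. Every hβ3 culture lay above every culture of the other lines under the same treatment, while Δβ3 and pMx overlapped. Within hβ3 and within pMx every docetaxel culture lay below every DMSO culture.

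In DMSO the Δβ3 minus hβ3 log2 difference of Map1b was -0.70 ± 0.18 (95% interval -1.05 to -0.35, adjusted p = 0.013) with 18 libraries and -0.52 ± 0.08 with 16. The 18-library call was lost without Δβ3 DMSO culture 1 (adjusted p = 0.054) and without hβ3 DMSO culture 3 (adjusted p = 0.067). In docetaxel the same difference was -0.58 ± 0.18 (adjusted p = 0.047), and the call was kept in 3 of the 18 fits that leave out 1 library, those without Δβ3 docetaxel culture 1 or 3 or Δβ3 DMSO culture 1; with 16 libraries it was -0.36 ± 0.08 and was called. Between hβ3 and pMx the values were 0.53 ± 0.18 in DMSO and 0.34 ± 0.18 in docetaxel with 18 libraries (adjusted p = 0.073 and 0.30), and 0.51 ± 0.07 and 0.33 ± 0.07 with 16, where both were called. Between Δβ3 and pMx in DMSO the 16-library difference was -0.01 ± 0.08 (95% interval -0.16 to 0.14).

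Docetaxel lowered Map1b modestly in the 16-library fit, with a mean log2 change over the lines of -0.20 ± 0.04, which is 13.0% lower, and adjusted p over the alternatives from 1.3e-06 to 0.19. With 18 libraries the change was -0.23 ± 0.10 and was not called (adjusted p = 0.15). In the 16-library fit the change was -0.16 ± 0.08 in Δβ3, -0.32 ± 0.07 in hβ3 and -0.13 ± 0.07 in pMx, and it was called within hβ3. With the trend of changes with transcript length also removed, the changes were -0.31 ± 0.08, -0.27 ± 0.07 and -0.33 ± 0.07 in the same lines and all 3 were called (adjusted p = 0.013, 0.0054 and 0.00056). The difference in response between hβ3 and pMx was not called, at -0.19 ± 0.10 (adjusted p = 0.36) and, with the trend removed, 0.06 ± 0.10.

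Map1b is measured on a transcript model of 11852 bases, and levels of long transcripts moved with the line in DMSO. Among the 401 tested symbols with models over 8000 bases, the median log2 difference hβ3 minus pMx in DMSO was 0.21 with 16 libraries, against -0.05 to 0.01 in the 5 shorter classes. In docetaxel the median of this long class was -0.05, and that of symbols with models up to 600 bases was 0.28. When the length trend was taken out, a check chosen after seeing the data, the Map1b difference in DMSO was 0.31 ± 0.07 with 16 libraries and was still called. In docetaxel the hβ3 minus pMx difference of Map1b was then 0.37 ± 0.07 and was also called (adjusted p = 9.5e-05 in edgeR). With 18 libraries the length check ended the call of Map1b for Δβ3 minus hβ3 in DMSO, at -0.46 ± 0.20 (adjusted p = 0.15), and in docetaxel, at -0.55 ± 0.20 (adjusted p = 0.081). With 16 libraries and the same check both were called in edgeR, at -0.27 ± 0.08 in DMSO (adjusted p = 0.0076) and -0.31 ± 0.08 in docetaxel (adjusted p = 0.0029). Rn45s took 6.92% to 10.0% of counts in Δβ3 without the 2 cultures, 10.9% to 33.0% in hβ3 and 6.59% to 9.81% in pMx. Its part in the result was not tested.

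**Figure D2:**
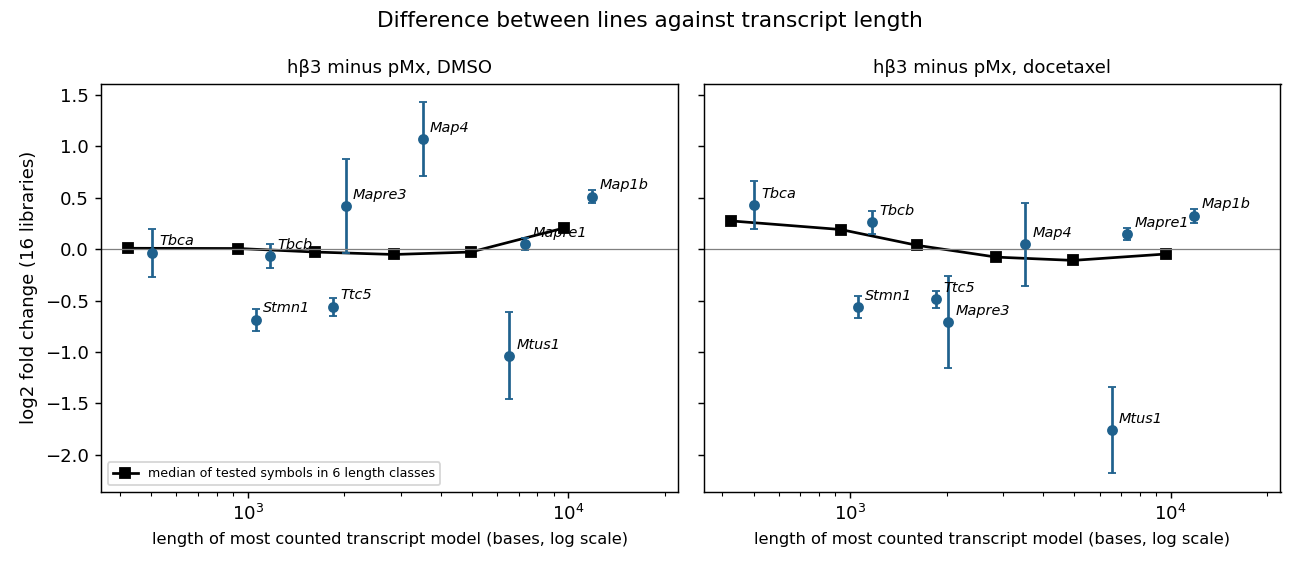
Log2 fold change of hβ3 minus pMx (y axis, 16 libraries, bars are SE) against the length of the most counted transcript model in bases (log x axis), in DMSO on the left and docetaxel on the right, with black squares for the median of all tested symbols in 6 length classes. In DMSO Map1b lies at 0.51 where the class over 8000 bases has a median of 0.21, and Stmn1, Ttc5 and Mtus1 lie below the line in both panels.

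Map4, Map7 and Mtus1 encode further lattice-binding proteins and had few counts. MAP4 is the main structural microtubule-associated protein outside neurons, MAP7 recruits kinesin-1, and MTUS1 encodes ATIP proteins, of which ATIP3 slows microtubule dynamics in human cells. Map4 (chromosome 9, 109931460 to 110083955, plus strand) had 323 counts over all libraries in 2 of its 8 models, Mtus1 (chromosome 8, 40990914 to 41133726, minus strand) had 359 in 6 models, and Map7 (chromosome 10, 20148471 to 20281590, plus strand) had 3 in 1 of 4. How reads shared by several models were counted is not stated in any source used, so few counts do not show that these genes were silent.

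Map4 had 0.811, 4.50 and 0.986 CPM in Δβ3 docetaxel, 1.17, 1.07 and 0.925 CPM in hβ3 docetaxel, and 0.847, 0.748 and 1.31 CPM in pMx docetaxel. In DMSO it had 0.395, 0.543 and 1.3 CPM in Δβ3, 2.84, 1.43 and 3.19 CPM in hβ3, and 1.38, 0.956 and 1.16 CPM in pMx. All 3 hβ3 DMSO cultures lay above all 3 hβ3 docetaxel cultures and above the other DMSO cultures, and Δβ3 docetaxel culture 2 was the highest library of all. In the 16-library fit Map4 was called for Δβ3 minus hβ3 in DMSO (-1.42 ± 0.44), for hβ3 minus pMx in DMSO (1.07 ± 0.36) and for docetaxel minus DMSO within hβ3 (-1.20 ± 0.37). With 18 libraries these were -1.72 ± 0.59, 1.09 ± 0.56 and -1.23 ± 0.57, and none was called (adjusted p = 0.067, 0.32 and 0.50). In docetaxel the Δβ3 minus hβ3 value changed sign with the libraries used, from 0.91 ± 0.59 with 18 to -0.24 ± 0.46 with 16. The 3 Map7 counts were all in Δβ3 DMSO culture 1, and the other 17 libraries had 0.

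Mtus1 was called between Δβ3 and hβ3 in docetaxel. It had 1.37, 15.4 and 2.15 CPM in Δβ3 docetaxel, 0.437, 0.427 and 0.504 CPM in hβ3 docetaxel, and 1.80, 1.31 and 1.55 CPM in pMx docetaxel. In DMSO it had 4.44, 1.01 and 1.04 CPM in Δβ3, 0.554, 0.620 and 0.213 CPM in hβ3, and 0.865, 1.15 and 0.838 CPM in pMx. The hβ3 cultures lay below those of the other lines under either treatment, and the 2 highest values were in the cultures that stand apart. The difference in docetaxel was 3.72 ± 0.83 with 18 libraries (13.2-fold, adjusted p = 0.0085) and 1.92 ± 0.45 with 16 (3.78-fold), so the fold was 3.78 without the culture at 15.4 CPM and the call was still made. The call was lost without hβ3 docetaxel culture 2 (adjusted p = 0.052) and in a fit of the compared groups alone (adjusted p = 0.14). The 16-library fit also called hβ3 minus pMx in docetaxel, at -1.76 ± 0.42, which was not called with 18 libraries (-1.75 ± 0.82, adjusted p = 0.24). In DMSO the 16-library values of 1.13 ± 0.47 for Δβ3 minus hβ3 and -1.04 ± 0.42 for hβ3 minus pMx were not called.

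Mtus1 counts fell on a model of 6550 bases and one of 4169 bases, and their shares differed between cultures. In Δβ3 docetaxel culture 2 the shorter model had 81 of 99 counts, or 12.6 CPM, against 0.062 CPM and 0 in the other Δβ3 docetaxel cultures. The longer model had 2.79 CPM there, against 1.31 and 2.15 CPM in the others. For the longer model alone hβ3 docetaxel had 0.365, 0.285 and 0.336 CPM and pMx docetaxel 1.59, 1.12 and 1.22 CPM. That culture is the one with the most heart muscle transcripts, and their part in the level of the shorter model was not tested. Exons of Mtus1 overlap 2 antisense genes and, as the strand setting is not stated, their reads cannot be told apart.

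**Figure D3:**
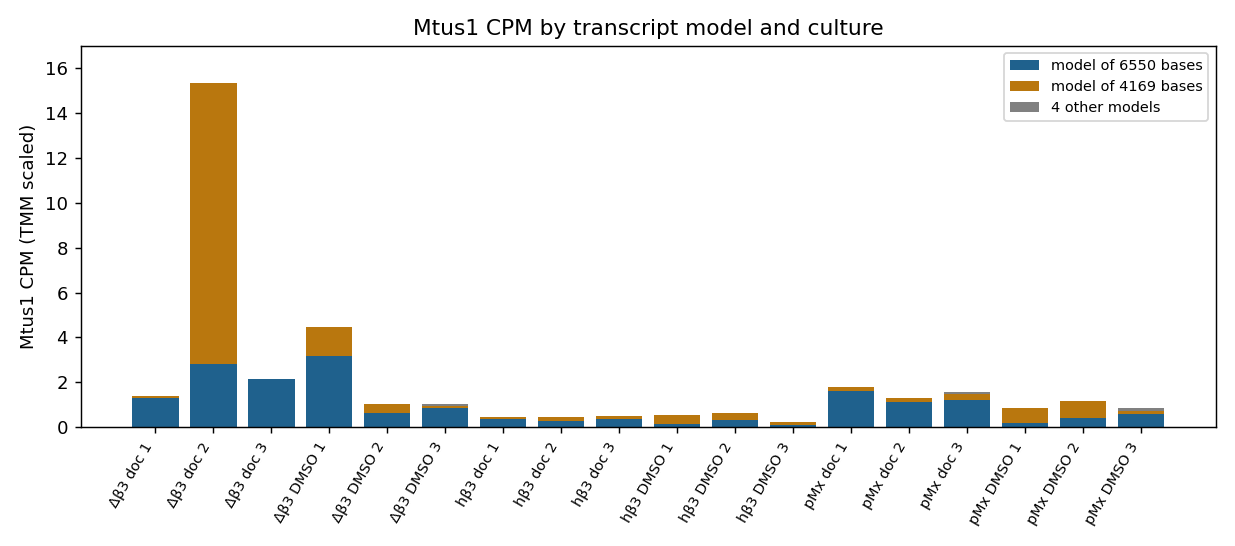
Mtus1 level in CPM (linear axis from 0) in each culture, stacked by transcript model, with the 6550-base model in blue and the 4169-base model in orange. The 4169-base model reaches 12.6 CPM in Δβ3 docetaxel culture 2 and stays at or under 1.28 CPM elsewhere, and all hβ3 cultures are at or under 0.620 CPM in total.

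Mapre1 and Mapre3 encode EB1 and EB3, which bind growing microtubule ends and bring other proteins there. Mapre1 (chromosome 2, 153741274 to 153773310, plus strand) was the steadiest of the tested genes, with a coefficient of variation of 5.91% over 16 libraries. It had 320.9, 281.3 and 294.0 CPM in Δβ3 docetaxel against 366.5, 322.8 and 321.5 CPM in Δβ3 DMSO. It had 330.8, 330.4 and 321.4 CPM in hβ3 docetaxel against 347.9, 337.1 and 348.8 CPM in hβ3 DMSO, and 301.8, 291.0 and 286.5 CPM in pMx docetaxel against 336.9, 324.2 and 323.5 CPM in pMx DMSO. Docetaxel cultures were all below DMSO cultures within each line, by a small margin. The mean log2 change was -0.14 ± 0.06 with 18 libraries and -0.09 ± 0.04 with 16 (95% interval -0.16 to -0.02), and it was not called in either fit (adjusted p = 0.12 and 0.070). After removal of the length trend it was called, at -0.22 ± 0.06 with 18 libraries (adjusted p = 0.012) and -0.17 ± 0.04 with 16. Pairs of lines were not called in either fit with the trend left in; with it removed and 16 libraries, Mapre1 was called for docetaxel within pMx, at -0.30 ± 0.06, and for hβ3 minus pMx in docetaxel, at 0.22 ± 0.06 (adjusted p = 0.0086).

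Mapre3 (chromosome 5, 30814641 to 30866106, plus strand) had 217 counts in all, on 1 of its 2 models. Its CPM ran from 0.310 to 1.34 in Δβ3 docetaxel and 0.543 to 2.27 in Δβ3 DMSO, from 0.588 to 0.875 in hβ3 docetaxel and 0.426 to 1.43 in hβ3 DMSO, and from 1.03 to 1.5 in pMx docetaxel and 0.433 to 0.764 in pMx DMSO. Docetaxel and DMSO cultures of pMx did not overlap, and those of the other lines did. Docetaxel minus DMSO within pMx was 0.92 ± 0.45 with 16 libraries and was not called (adjusted p = 0.16). The Δβ3 minus hβ3 value in DMSO was 0.35 ± 0.59 with 18 libraries and -0.60 ± 0.54 with 16. At this depth neither direction could be told.

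Tbca and Tbcb encode tubulin folding cofactors, of which TBCA binds β-tubulin and TBCB α-tubulin. Tbca (chromosome 13, 94788910 to 94842922, plus strand) had 100.4, 59.5 and 109.2 CPM in Δβ3 docetaxel and 56.5, 136.2 and 97.5 CPM in Δβ3 DMSO. It had 108.1, 112.9 and 95 CPM in hβ3 docetaxel and 100.8, 99.2 and 86.4 CPM in hβ3 DMSO, and 48.3, 97.4 and 86.2 CPM in pMx docetaxel and 78.4, 94.0 and 115.9 CPM in pMx DMSO. All groups overlapped, and the 3 lowest libraries were Δβ3 docetaxel culture 2, Δβ3 DMSO culture 1 and pMx docetaxel culture 1. That last library had the highest heart marker sum of the other 16, at 2580 CPM; the part of such RNA was not tested. Tbca was called in no comparison, and its mean docetaxel change was -0.09 ± 0.17 with 18 libraries and -0.10 ± 0.15 with 16 (95% interval -0.38 to 0.19).

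Tbcb (chromosome 7, 30224131 to 30232272, minus strand) ranged from 50.9 CPM in pMx docetaxel culture 1 to 96.4 CPM in Δβ3 DMSO culture 2. Group means in docetaxel were 65.3 ± 7.16 CPM in Δβ3, 74.9 ± 4.76 CPM in hβ3 and 61.8 ± 9.58 CPM in pMx (SD, n = 3 each), and in DMSO 82.4 ± 12.5, 69.3 ± 2.25 and 71.3 ± 8.42 CPM in the same lines. No comparison called it in either fit. In DMSO the Δβ3 minus hβ3 difference was 0.30 ± 0.13 with 16 libraries (adjusted p = 0.097), and the response of Δβ3 minus that of hβ3 was -0.42 ± 0.18 (adjusted p = 0.44). Its exons share 325 bases with Polr2i on the opposite strand, whose reads cannot be told apart.

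Ttc5 encodes the protein that recognises nascent tubulin and starts the decay of tubulin mRNA (chromosome 14, 50765415 to 50785519, minus strand). Like Stmn1 it was lowest in hβ3. In docetaxel it had 58.6, 36.0 and 52.9 CPM in Δβ3, 36.5, 39.8 and 37.5 CPM in hβ3, and 55.0, 52.7 and 50.5 CPM in pMx. In DMSO it had 59.6, 50.3 and 48.0 CPM in Δβ3, 34.0, 30.8 and 32.4 CPM in hβ3, and 47.2, 50.0 and 43.9 CPM in pMx. The hβ3 cultures were below all others under the same treatment apart from Δβ3 docetaxel culture 2. Within hβ3 and within pMx, every docetaxel culture was above every DMSO culture.

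The Δβ3 minus hβ3 log2 difference of Ttc5 in DMSO was 0.70 ± 0.16 (95% interval 0.39 to 1.01, 1.62-fold, adjusted p = 0.0059), and 0.62 ± 0.10 with 16 libraries. It was called under all 10 other settings and without any single library. The hβ3 minus pMx difference in DMSO was -0.54 ± 0.16 (adjusted p = 0.038) and -0.56 ± 0.09 with 16 libraries. The 18-library call was lost in 13 of the 18 fits that leave out 1 library, with adjusted p up to 0.16; those 13 leave out any hβ3 or pMx library or Δβ3 docetaxel culture 3. In docetaxel, 0.56 ± 0.10 for Δβ3 minus hβ3 and -0.49 ± 0.09 for hβ3 minus pMx were called with 16 libraries, and 0.38 ± 0.16 and -0.48 ± 0.16 with 18 were not (adjusted p = 0.12 and 0.071). With the length trend removed, the 18-library fit called hβ3 minus pMx in docetaxel, at -0.51 ± 0.15 (adjusted p = 0.041).

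Docetaxel raised Ttc5 slightly in the 16-library fit, by a mean log2 change of 0.20 ± 0.05 or 15.1%, with adjusted p over the alternatives from 0.0050 to 0.79. The change was 0.19 ± 0.10 in Δβ3, 0.24 ± 0.09 in hβ3 and 0.17 ± 0.09 in pMx, and none of these was called alone. With 18 libraries the mean change was 0.10 ± 0.09 and was not called (adjusted p = 0.51), with Δβ3 docetaxel culture 2 as the lowest culture of its group.

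Calls between lines all involved hβ3, in either fit. For Δβ3 minus hβ3 in DMSO, 3 of the 9 tested genes were called with 18 libraries, where 13% of all tested symbols were, and 4 of 9 with 16, where 23.2% were. Stmn1 and Ttc5 were higher and Map1b lower, with Map4 lower in the 16-library fit. The median log2 difference of the 9 was 0.25 with 18 libraries and 0.30 with 16, against 0.00 for all tested symbols in each fit. For hβ3 minus pMx in DMSO, 1 of 9 was called with 18 libraries (8.96% of all symbols) and 4 of 9 with 16 (26.7%). For Δβ3 minus pMx in DMSO the count was 0 of 9 in both fits and under DESeq2, which called 34 of 6868 symbols. Of all symbols, 0.0411% were called there with 18 libraries and 0.331% with 16. At an unadjusted p under 0.05 there were 0 of the 9 with 18 libraries, beside 1226 of the 12171 symbols. With 16 libraries there was 1, Stmn1, beside 1062 of the 12383 symbols.

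**Figure D4:**
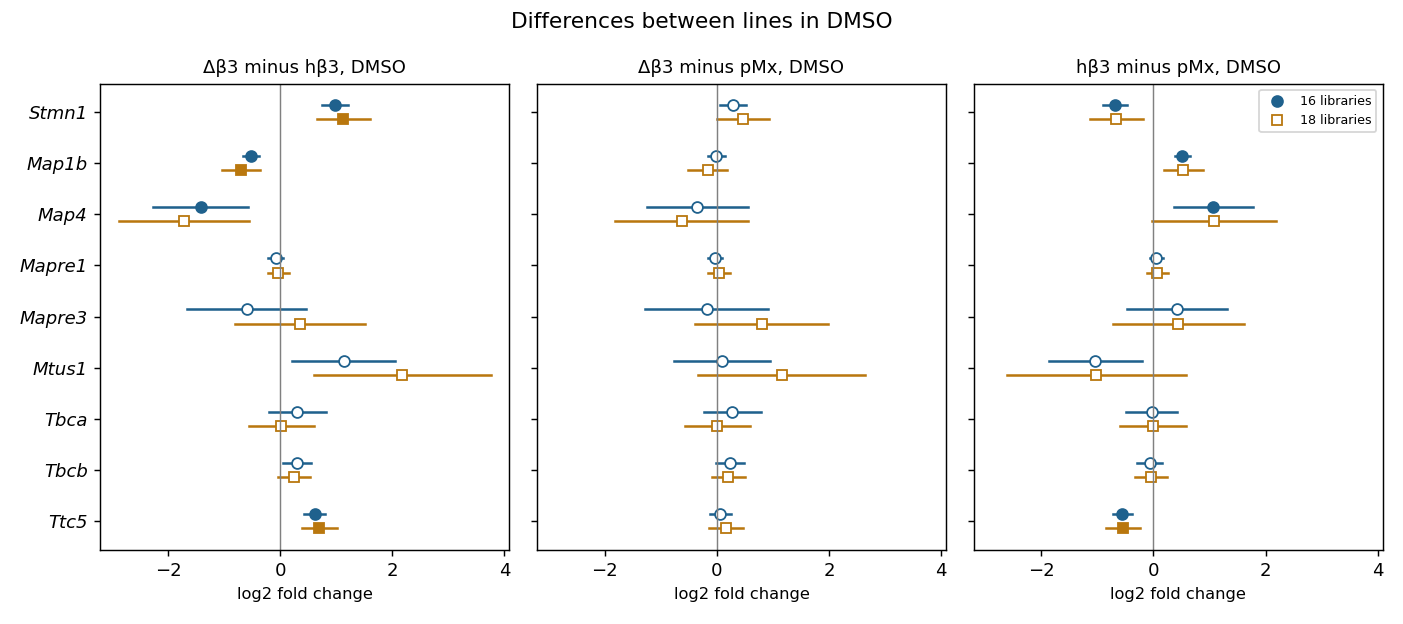
Log2 fold change between lines in DMSO for 9 genes (x axis; points with 95% intervals), from the 16-library fit in blue and the 18-library fit in orange, filled where called. Stmn1 and Ttc5 lie to the right and Map1b and Map4 to the left of 0 for Δβ3 minus hβ3, the reverse holds for hβ3 minus pMx, which shares the hβ3 libraries, and no point is filled for Δβ3 minus pMx.

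In docetaxel, Δβ3 minus hβ3 called 2 of 9 genes with 18 libraries, Mtus1 and Map1b, where 10% of all symbols were called, and 4 of 9 with 16, where 19.8% were. For hβ3 minus pMx, 0 of 9 passed with 18 libraries, where 8.44% of symbols did, and 4 of 9 with 16, where 27.3% did. With 18 libraries 3 of 9 had an unadjusted p under 0.05, as had 2460 of the 12171 symbols. DESeq2 called 1, beside 1420 of 11640 symbols. For Δβ3 minus pMx, 0 of 9 passed in either fit or by DESeq2, and 0.0246% and 0.46% of symbols did with 18 and 16 libraries. By DESeq2 9 of 9996 symbols did. With 18 libraries 1 of 9 had an unadjusted p under 0.05, as had 1684 of the 12171 symbols.

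For docetaxel minus DMSO as the mean of the lines, 0 of 9 genes passed with 18 libraries, where 15.5% of symbols did. At an unadjusted p under 0.05 there were 2, beside 3440 of the 12171 symbols. DESeq2 called 1, beside 2360 of 11640 symbols. With 16 libraries 2 of 9 were called, Map1b and Ttc5, where 30% of symbols were, so the set's share was near the background. Within Δβ3 the count was 0 of 9 in both fits and by DESeq2, with a background of 6.85% and 11.3% in the fits and 1576 of 11404 symbols by DESeq2. With 18 libraries 3 had an unadjusted p under 0.05, as had 3174 of the 12171 symbols. Within hβ3 the count was 0 with 18 libraries (background 1.16%) and by DESeq2 (371 of 9087 symbols), and 2 with 16 (12.4%). With 18 libraries 1 had an unadjusted p under 0.05, as had 1175 of the 12171 symbols. Within pMx the count was 0 in both fits and by DESeq2, with a background of 3.61% and 21.2% in the fits and 844 of 8196 symbols by DESeq2. At an unadjusted p under 0.05 there were 0 with 18 libraries, beside 1868 of the 12171 symbols. With 16 libraries there was 1, Mapre1, beside 3915 of the 12383 symbols. The median log2 change of the 9 genes as the mean of the lines was -0.09 in each fit, against 0.06 for all tested symbols with 18 libraries and 0.02 with 16.

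The response to docetaxel was not shown to differ between lines for any of the 9 genes. The counts were 0 in all 3 tests of the difference in response, with 18 or 16 libraries and with DESeq2. Of all symbols, 0.0411% were called for Δβ3 minus hβ3, 0% for Δβ3 minus pMx and 0.00822% for hβ3 minus pMx with 18 libraries. With 16 libraries these shares were 0.606%, 0% and 2.3%. By DESeq2 the calls were 37 of 6221, 0 of 11640 and 25 of 6221 symbols in the same order. For Δβ3 minus hβ3 with 18 libraries 2 of the 9 genes had an unadjusted p under 0.05, as had 1051 of the 12171 symbols. The widest value was that of Map4 for Δβ3 minus hβ3, at 2.63 ± 0.83 with 18 libraries (adjusted p = 0.54) and 1.18 ± 0.64 with 16. For Stmn1 the same difference was -0.69 ± 0.34 with 18 libraries and -0.23 ± 0.17 with 16.

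Groups that did not overlap were counted as well, with all 18 libraries. For docetaxel against DMSO these were 1 of 9 genes in Δβ3, 4 in hβ3 and 5 in pMx, where 18.1%, 29% and 35.1% of all tested symbols had ranges apart. Between lines in DMSO they were 6 of 9 for Δβ3 against hβ3 (32.8% of symbols), 1 for Δβ3 against pMx (16.5%) and 6 for hβ3 against pMx (38.5%). In docetaxel they were 3, 0 and 7 of 9 in the same order of pairs, beside 29.2%, 12.2% and 43.3% of symbols. Mapre1 was the gene with docetaxel below DMSO in all 3 lines, and the share of all symbols with that pattern was not counted. Its nearest cultures in Δβ3 were at 320.9 CPM in docetaxel and 321.5 CPM in DMSO.

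**Figure D5:**
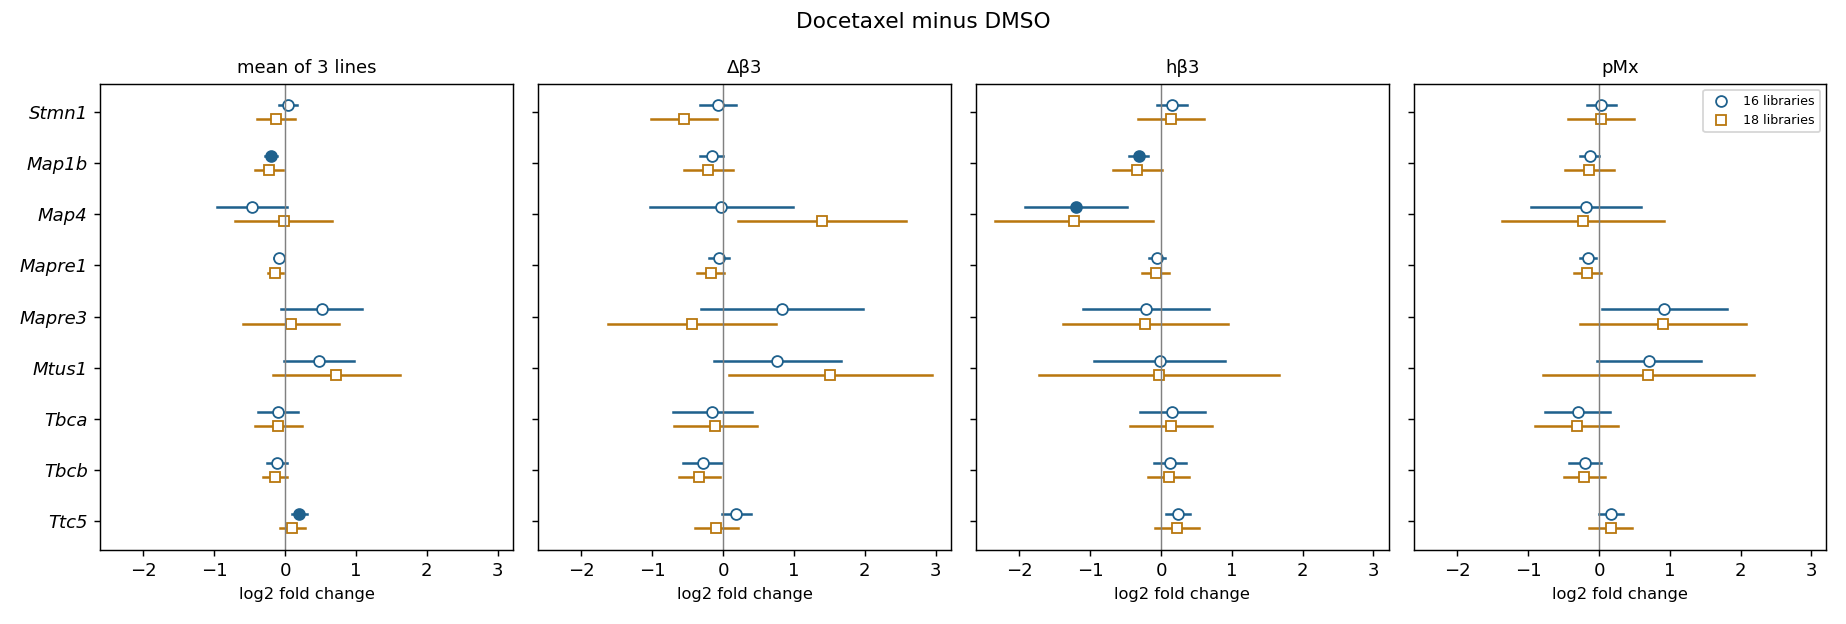
Log2 fold change of docetaxel minus DMSO for 9 genes (x axis; points with 95% intervals), as the mean of the 3 lines and in each line, from the 16-library fit in blue and the 18-library fit in orange, filled where called. Filled points are Map1b and Ttc5 in the mean and Map1b and Map4 in hβ3, all from the 16-library fit, and the low-count genes Map4, Mapre3 and Mtus1 have the widest intervals.

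A list of 87 other microtubule genes was set beside the 10, and 56 of them were tested. For Δβ3 minus hβ3 in DMSO, 2 rose and 2 fell with 18 libraries and 5 rose and 5 fell with 16, at a median of 0.03 and 0.02. For hβ3 minus pMx in DMSO, 3 rose and 0 fell with 18 libraries and 8 rose and 6 fell with 16, at a median of 0.01 and 0.00. Map6, which protects microtubules from cold and drugs, averaged 18.8 CPM in hβ3 DMSO and 5.57 CPM in pMx DMSO, a log2 difference of 1.75 ± 0.26 (adjusted p = 0.00024); Δβ3 minus hβ3 was -1.72 ± 0.26 (adjusted p = 0.00022). With 16 libraries these were 1.73 ± 0.18 and -1.46 ± 0.21, and both were called. Ttll4, a tubulin glutamylase, was also higher in hβ3 than in pMx in DMSO, by 0.47 ± 0.11 (adjusted p = 0.0089) with 18 libraries and 0.45 ± 0.07 with 16. Dst and Macf1, which link microtubules to actin and have very long transcripts, were called in the 16-library fit at 0.85 ± 0.11 and 0.40 ± 0.12 for hβ3 minus pMx in DMSO, and were not called with 18 libraries, at 0.87 ± 0.35 and 0.42 ± 0.47. Among the 6 genes that fell there with 16 libraries were Agbl3 at -1.04 ± 0.25, Mzt1 at -0.37 ± 0.11 and Nedd1 at -0.26 ± 0.08. None of them was called with 18 libraries. Of the folding partners, Arl2, a small GTPase that works with the cofactors, was higher in Δβ3 than in hβ3 in DMSO by 0.45 ± 0.13 (adjusted p = 0.031) with 18 libraries and 0.49 ± 0.11 with 16. No gene of the list was called for Δβ3 minus pMx in DMSO or docetaxel in either fit.

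For docetaxel as the mean of the lines, 1 of the 56 rose and 1 fell with 18 libraries, and 2 rose and 4 fell with 16, where 1949 of the 12383 symbols rose and 1768 fell. The list's median was -0.06 with 18 libraries and -0.01 with 16. Ttll1, part of a tubulin polyglutamylase, rose by 0.43 ± 0.12 (adjusted p = 0.024), to 34.8 CPM in docetaxel against 25.3 CPM in DMSO, with 18 libraries, and by 0.30 ± 0.08 with 16. Ttll4 fell by 0.36 ± 0.06 on the log2 scale (adjusted p = 0.00081), to 119.9 CPM in docetaxel against 154.5 CPM in DMSO, and by 0.32 ± 0.04 with 16 libraries. In the 16-library fit Dst also rose, by 0.25 ± 0.07, while Nedd1, which brings γ-tubulin rings to the spindle, fell by 0.25 ± 0.05 and Cnot11, a subunit of the CCR4-NOT deadenylase, fell by 0.20 ± 0.06 on the log2 scale. With 18 libraries Dst, Nedd1 and Cnot11 were not called, at log2 changes of 0.39 ± 0.20, -0.23 ± 0.10 and -0.40 ± 0.19.

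Genes with the most similar pattern were sought for Stmn1, Map1b and Ttc5 by Pearson's correlation of log2 CPM over 16 libraries, among 9781 protein-coding symbols. The libraries share lines and treatments, so high values follow from any shared difference between lines, and the correlations are given as a description. For Stmn1 they were Lgals7, encoding a galectin (r = 0.974), and Tmed3, encoding a cargo receptor of the early secretory pathway (r = 0.972). Lgals7 averaged 34.4 CPM in Δβ3, 8.27 CPM in hβ3 and 27.4 CPM in pMx in docetaxel, and 30.2, 5.86 and 21.8 CPM in DMSO. For Map1b they were Srrm2, a splicing factor gene (r = 0.987), and Larp1, encoding an RNA-binding protein of ribosomal protein mRNAs (r = 0.980). Srrm2 averaged 103.7 CPM in Δβ3, 137.8 CPM in hβ3 and 109.0 CPM in pMx in docetaxel, and 123.3, 179.3 and 118.4 CPM in DMSO. For Ttc5 they were Ptk7, a receptor-like pseudokinase gene (r = 0.989), and Nt5e, encoding the ectonucleotidase CD73 (r = 0.986). Nt5e averaged 232.0 CPM in Δβ3, 50.1 CPM in hβ3 and 182.8 CPM in pMx in docetaxel, and 137.8, 27.6 and 113.1 CPM in DMSO.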

How the data were processed

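The measurement was RNA sequencing of 18 cultures. Per the labels' protocols, ribosomal RNA was depleted from total RNA, and libraries were made with random hexamers and 13 PCR cycles and read as single 50-base reads. The authors deposited raw read counts, 1 row per transcript model. FastQC, HISAT2, featureCounts and mm10 are named in the submitters' processing notes; no source used here gives versions, the annotation, the strand setting or how multi-mapping reads were treated. The deposited model length, in bases, is another column of the table, used for the length check.

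Counts of 63759 models were summed for 32765 symbols; columns were assigned by the sample titles. With R 4.3.3 and edgeR 4.0.16, symbols were kept by filterByExpr with the 6 groups, scaled by TMM and put to the robust quasi-likelihood F-test, 1 coefficient per group, two-sided, Benjamini-Hochberg adjusted over all tested symbols. The 13 comparisons were docetaxel against DMSO (the mean of the lines and each line), pairs of lines under each treatment, and differences in response. Intervals are 95%, from the SE under a normal approximation. Alternatives were RLE factors, no filter, DESeq2 1.42.0, limma 3.58.1 voom with sample weights, the replicate block, 16 libraries, only the compared groups, the model with the most counts, each library left out and, chosen after seeing the data, removal of the trend with transcript length. The code was tested on simulated data.

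The genes, lists and tests were chosen with earlier results of these data known. All 10 genes are named, from the 87 others up to 5 called genes per direction with at least 2 CPM and the smallest p (some that met this are not printed), and 2 similar genes for each of the set called in DMSO. Marker lists for luminal, heart, skeletal muscle, fibroblast, neuron, leukocyte, endothelial and basal cells were summed per library. The fibroblast, leukocyte, endothelial and basal sums were highest in Δβ3 docetaxel culture 2, at 1131, 188.0, 617 and 147.0 CPM, and the skeletal muscle sum was 2.79 to 16.2 CPM in all libraries. The neuron sum is given with Stmn1. Coordinates are from GENCODE M21 of mm10. Libraries of a group differed by more than sampling noise.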

Additional observations from a re-analysis of the deposited data

How the results depend on the processing

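Of 20 values, those of a gene in a comparison where either fit called it, all kept their direction under all 10 alternatives and without each of the 18 libraries. The cause of changed calls was not tested. Because the 20 were chosen by a call and the alternatives reuse the same libraries, a kept direction was close to given. Values outside the 20 could change sign, as those of Map4 in docetaxel and Mapre3 in DMSO did for Δβ3 minus hβ3. Numbers of the 9 genes called are given here by setting. Brackets hold the calls among all tested symbols, which were 12171, or 12383 with 16 libraries, unless another total is given. For docetaxel as the mean of the lines the count was 0 (1886). It was 1 with DESeq2 (2360 of 11640), 3 with voom weights (4086) and 2 with 16 libraries (3717). Without the length trend it was 1 (1919), and 3 with 16 libraries (3843). Within Δβ3 it was 0 (834), and 1 with 16 libraries without the length trend (1444). Within hβ3 it was 0 (141). It was 2 with voom weights (1798), with 16 libraries (1539, and 1754 without the trend) and with only the compared groups (1388 of 10572). Within pMx it was 0 (439), and 1 with voom weights (3156) and 2 with 16 libraries without the trend (2646). For Δβ3 minus hβ3 in DMSO it was 3 (1588). It was 5 with DESeq2 (2069 of 11640) and with voom weights (3008). It was 4 with 16 libraries (2879, and 2962 without the trend) and with the model with the most counts (1592 of 11946). It was 2 without the trend (1553) and with only the compared groups (828 of 10676). For hβ3 minus pMx in DMSO it was 1 (1090), 0 without the low-count filter (841 of 21090) and 2 with DESeq2 (1437 of 11640). It was 4 with voom weights (3340), with 16 libraries (3311, and 3483 without the trend) and with only the compared groups (2834 of 10816). For Δβ3 minus hβ3 in docetaxel it was 2 (1222). It was 1 without the filter (902 of 21090), with the replicate block (975) and without the length trend (1288). It was 0 with only the compared groups (300 of 10666). It was 4 with voom weights (2881) and with 16 libraries (2457, and 2593 without the trend). For hβ3 minus pMx in docetaxel it was 0 (1027). It was 1 with RLE factors (1053), with DESeq2 (1420 of 11640) and without the length trend (1038). It was 4 with 16 libraries (3381) and with only the compared groups (3329 of 10936). It was 5 with voom weights (4316) and with 16 libraries without the trend (3485).

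Leaving out 1 library gave 2 to 5 calls for Δβ3 minus hβ3 in DMSO, 0 to 3 for hβ3 minus pMx in DMSO, 0 to 3 for each of Δβ3 minus hβ3 and hβ3 minus pMx in docetaxel, 0 to 1 for docetaxel as the mean of the lines, and 0 in the other 8 comparisons. The counts moved by over 1.5 times in the following fits. For Δβ3 minus hβ3 in DMSO the count was 5 without Δβ3 docetaxel culture 1 (1607 of 12658 symbols) or 2 (2870 of 12464). For hβ3 minus pMx it was 3 in DMSO (1936 of 12464) and in docetaxel (1946 of 12464) without Δβ3 docetaxel culture 2. Without Δβ3 DMSO culture 1 it was 2 in DMSO (1537 of 12614) and 1 in docetaxel (1573 of 12614). In DMSO it was 0 without any hβ3 or pMx library or Δβ3 docetaxel culture 3, where 699 to 1061 of 12526 to 12678 symbols were called. Docetaxel as the mean of the lines reached 1 without Δβ3 DMSO culture 1 (2292 of 12614 symbols). For Δβ3 minus hβ3 in docetaxel the count was 0 without hβ3 docetaxel culture 2 (590 of 12666). It was 1 without any other hβ3 or pMx library or Δβ3 DMSO culture 2 or 3, where 602 to 1154 of 12526 to 12678 symbols were called. The replicate numbers of the labels were not used as pairs. Correlations of the deviations of same-numbered libraries ran from -0.53 to 0.46 (median 0.05), with 18 of 45 over 0.1. Between libraries of different number they ran from -0.55 to 0.56 (median -0.02), with 32 of 90 over 0.1. Deviations from the mean of the same group depend on one another, so this cannot show whether samples were paired. As a block the replicate numbers moved the count of 1 comparison, Δβ3 minus hβ3 in docetaxel, from 2 to 1.

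Depth limits Map4, Mapre3, Mtus1 and Map7, with 3 to 359 counts over all 18 libraries. The 16-library fit leaves 2 cultures in each Δβ3 group.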
